A study of Danio rerio with 2 samples.

Results

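Jun and Fos genes and a set of other immediate early genes were compared between atropine-exposed and water-exposed regenerating hearts of adult zebrafish. The genes were taken from a list of 10 names, jun, junba, junbb, jund, fosab, fosl2, atf3, egr1, ier2 and btg2, matched to the array by the symbol of the platform annotation. Of the 10, 8 were found under their own symbol. The annotation lists ier2 as ier2a, for which ier2 is a RefSeq synonym, and that gene was taken for it. No probe set carried the symbol jund, which is not analysed here. The 9 genes found had 17 probe sets, out of 8793 genes with a single symbol on the array.

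The array of the treated group came from adult fish that lost about 20% of the ventricle, at its apex, and were then kept in atropine, which blocks the muscarinic receptors for acetylcholine. That of the control group came from adult fish with the same amputation kept in water. Each of the 2 arrays held RNA from a pool of 15 whole hearts taken 24 hours after amputation, so the amputation is shared by both groups and no uninjured heart is part of the comparison. The strain, sex and age in months of the fish and the dose of atropine are not stated in the labels. With 1 array per condition and pooled animals there is no spread between replicates, no difference below was tested across samples, and each value describes these 2 pools.

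Immediate early genes are switched on within minutes of a stimulus, such as a growth factor or an injury, without new protein synthesis. Signals passed along mitogen-activated protein (MAP) kinase cascades reach serum response factor and its partners, which start transcription of FOS and EGR genes, and Jun and ATF proteins, which act on the JUN gene. The Jun and Fos proteins carry a basic region and a leucine zipper (bZIP) and pair into the dimer called AP-1, whose target genes in mammals include matrix metalloproteinases. Jun proteins can also pair with each other, whereas Fos proteins need a partner such as Jun.

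Expression values are on a log2 scale, so a difference of 1 is a 2-fold change, and every difference is atropine minus water. Probe sets with at least 1 of their 2 values at or above 4.05, the overall median without controls, entered the comparison. The brightest probe set stood for a gene. Of the 9 genes found, 8 passed this filter and egr1 did not. Across all 5294 compared genes the median difference was -0.01 with a standard deviation of 0.27 over genes. Of the heart muscle markers, all 15 with a probe set passed the filter; their differences, which ran from -1.41 to 1.24, are given with those of other cell types. The 13 polyadenylated spike-in probe sets past the filter, by the manufacturer's scheme added to the RNA before labelling, were lower in atropine by a median of -0.48. Their differences ran from -0.86 to -0.13. A scaling to their median, as used below, would put the median of all compared genes at 0.47, so member differences are to be read relative to the other genes.

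**Figure D1:**
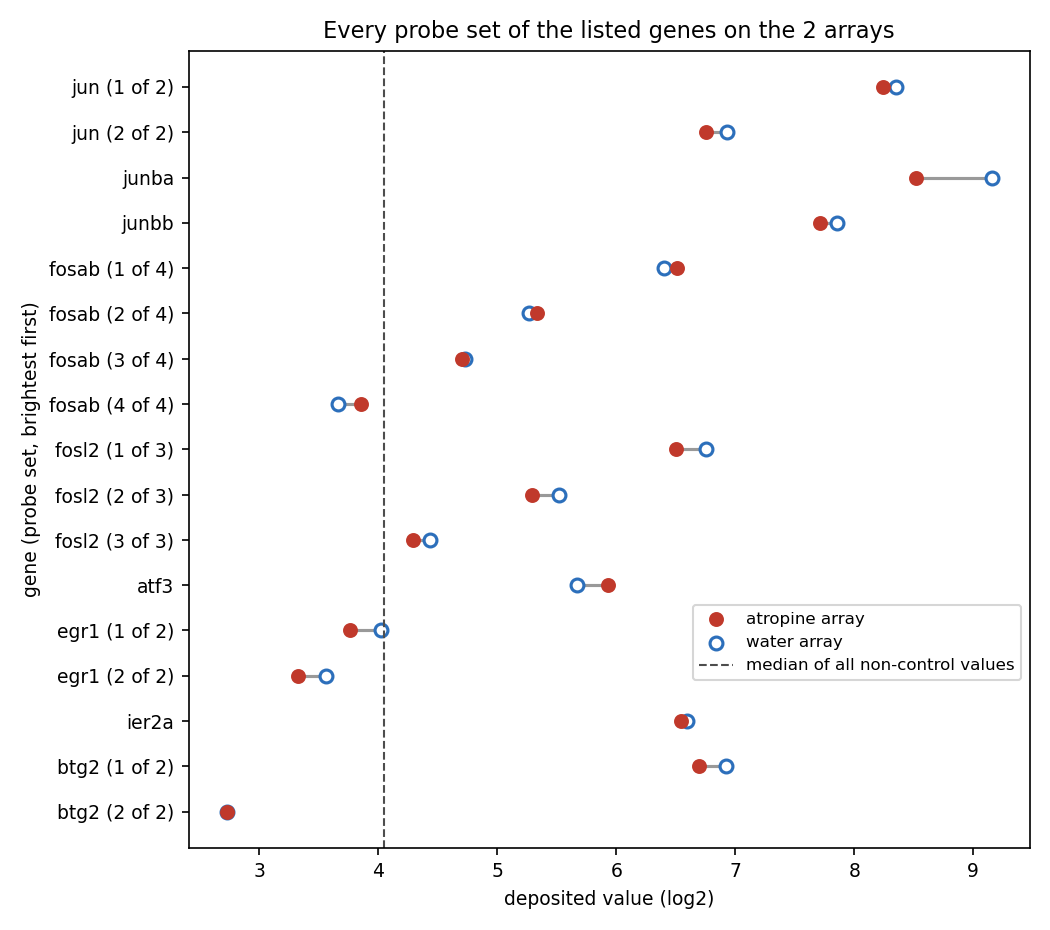
Deposited log2 value (x axis) of each of the 17 probe sets (rows, brightest first within a gene), with filled points for the atropine array and open points for the water array. The dashed line is the level filter of 4.05. The gap is widest for junba, at 8.52 in atropine and 9.15 in water, and the points of fosab and atf3 lie in the opposite order on all but the third fosab probe set. The dimmer btg2 probe set shows no gap.

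The Jun genes were lower in atropine-exposed hearts on every probe set as deposited, and junba stood apart from the others in size. All 3 compared Jun genes, on 4 of 4 probe sets, had differences below 0. The background share of compared genes with a difference below 0 was 52.0%. Scaled to the median of the polyadenylated spike-ins, jun and junbb turned to 0.37 and 0.34, and junba was at -0.15. Single spike-in probe sets differed by -0.86 to -0.13, so the sign of junba depends on which of them set the scale. In a bulk sample, fewer cells of a type and less RNA per cell cannot be told apart.

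The gene junba encodes a JunB protein, a Jun family subunit of AP-1. Its 1 probe set read 8.52 in atropine and 9.15 in water, a difference of -0.63, or 1.55-fold lower in atropine than in water. On the linear scale these are 368 units in atropine and 569 units in water. Only 89 of the 5294 compared genes, 1.68%, had a difference as low or lower, junba included. Among the 8 compared genes of the list it was the only one at least 1.5-fold lower, and none was at least 1.5-fold higher. The background over all compared genes was 2.12% in the lower direction and 1.87% in the higher one. At 2-fold no listed gene was apart, beside 0.359% of compared genes lower and 0.397% higher. The value lay close to the 1.5-fold threshold, and after quantile normalization it was -0.57, just short of it.

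Its paralog junbb, the other zebrafish JunB gene, differed far less. It read 7.71 in atropine and 7.86 in water, a difference of -0.14, and 27.7% of compared genes were as low or lower. The gap between the differences of junba and junbb was -0.49. For scale, in 648 genes with at least 2 probe sets past the filter, the gap between the differences of the 2 brightest probe sets of the same gene had a standard deviation of 0.21, and the 95th percentile of their size was 0.44. These gaps compare probe sets on the same 2 pools and carry no animal-to-animal error. Each is within 1 gene, so they do not show how far apart 2 different genes commonly lie. The pair was also singled out because junba was the lowest of the listed genes, and its gap was not tested. The 2 JunB genes have 1 probe set each, so neither has a second reading.

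The gene jun, encoding c-Jun, read 8.24 in atropine and 8.35 in water on its brighter probe set, a difference of -0.11. Its dimmer probe set read 6.76 in atropine and 6.93 in water, a difference of -0.17. Both were lower in atropine by amounts well inside the standard deviation of all genes.

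The Fos genes did not share a direction. The gene fosl2, encoding Fra-2, a Fos relative that lacks the strong activation domain of c-Fos in mammals, was lower on all 3 of its probe sets. They read 6.50, 5.29 and 4.29 in atropine against 6.75, 5.52 and 4.43 in water, with differences of -0.25, -0.22 and -0.14. These 3 readings lay within 0.11 of each other. Of compared genes 14.8% were as low as the brightest one or lower, and it turned to 0.23 when scaled to the spike-ins.

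The gene fosab encodes c-Fos and has 4 probe sets, the largest number in the list. The brightest read 6.51 in atropine and 6.40 in water, a difference of 0.11. The next read 5.34 in atropine and 5.27 in water (0.07), and the third 4.70 in atropine and 4.73 in water (-0.03). The fourth, at 3.85 in atropine and 3.66 in water (0.19), lay under the level filter. Of the 4 readings 3 are thus slightly above 0 and 1 slightly below, and the 3 past the filter lay within 0.14 of each other. The names of the first and the fourth mark probes shared by transcripts of the same gene.

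The highest difference among the listed genes was that of atf3, which encodes a stress-induced bZIP protein able to pair with Jun proteins. Its 1 probe set read 5.93 in atropine and 5.67 in water, a difference of 0.26. Of compared genes 10.9% were as high or higher. So 4 of the 6 AP-1 genes compared were lower in atropine, beside 52.0% of all compared genes, and 2, fosab and atf3, were higher. The median over the 6 was -0.13. The count of 4 lower and 2 higher held under each scaling tried except the one to the spike-in median, where all but junba were above 0.

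**Figure D2:**
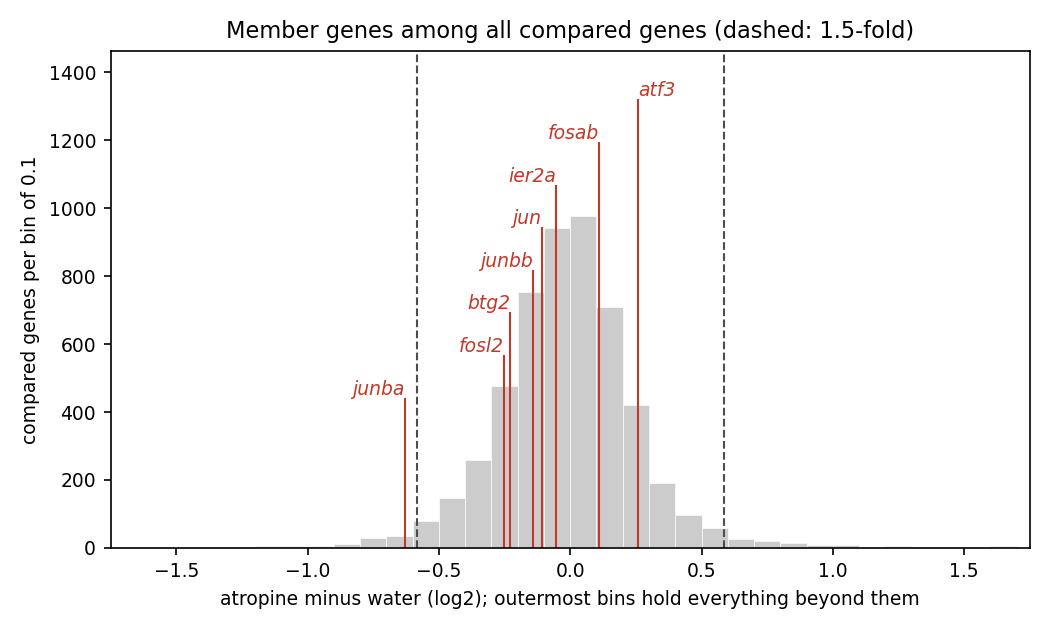
Differences of the 8 compared genes of the list (red lines, atropine minus water, log2; line heights are for legibility only) over a histogram of all 5294 compared genes in bins of 0.1. The line of junba, at -0.63, lies beyond the dashed 1.5-fold mark and the other 7 lie between -0.25 and 0.26.

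Of the 3 listed genes outside the AP-1 group, none came near 1.5-fold. The gene egr1 encodes a zinc finger transcription factor that is a standard readout of MAP kinase signalling. Its 2 probe sets read 3.77 and 3.33 in atropine against 4.02 and 3.56 in water, with differences of -0.25 and -0.23. Both were lower by nearly the same amount, but all 4 values lay under the level filter, and whether these probe sets were above background is not known. The first of these probe sets has a name that marks probes shared with related transcripts.

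The gene ier2a, whose product is a nuclear protein made early after growth factor stimulation, read 6.54 in atropine and 6.59 in water. The difference of -0.05 sat near the middle of all genes, with 42.5% as low or lower. The gene btg2 belongs to a family of antiproliferative genes and is induced by p53 in mammals. Its brighter probe set read 6.70 in atropine and 6.93 in water, a difference of -0.23, lower than in most genes (16.8% were as low or lower). Its other probe set, at 2.73 in both atropine and water, lay well under the filter.

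Over the 8 compared genes the median difference was -0.13, beside -0.01 over all compared genes. Of the 8, 6 were below 0, beside 52.0% of all compared genes. Without junba the median of the other 7 was -0.11 and the lowest -0.25. The 13 probe sets past the filter gave 10 below 0 and 3 above, where 51.9% of named probe sets past the filter were below 0. Probe sets of 1 gene read the same RNA and are not independent. The standard deviation over the 8 genes was 0.27, beside 0.27 over all compared genes.

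**Figure D3:**
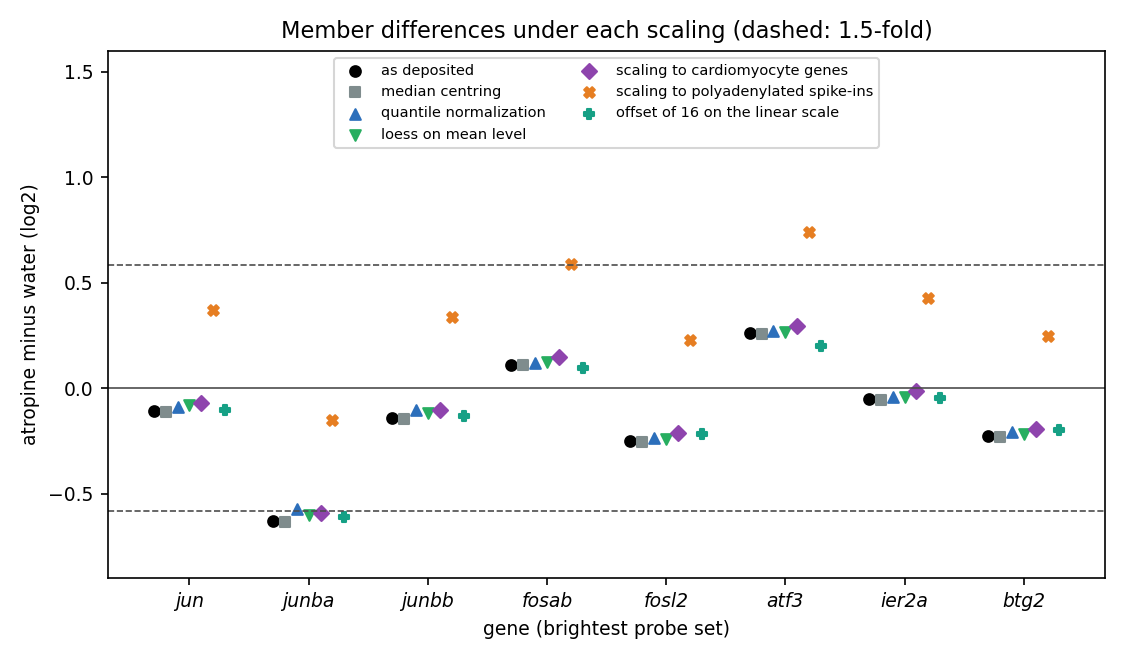
Difference of each compared gene (atropine minus water, log2) under the deposited values and 6 other treatments of the values, 1 symbol each, with dashed lines at 1.5-fold. The scaling to the polyadenylated spike-ins lifts every gene by the same amount, and the other symbols of a gene lie close together.

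Relatives of the Jun and Fos genes that carry a bZIP domain were taken as a further list, and its difference from the Jun genes was not tested. Of 47 names, 19 had a probe set and 14 passed the filter. The median of the 14 was 0.13 and their standard deviation 0.35, with 9 above 0 and 5 below, where 47.8% of all compared genes were above 0, and it stayed above 0 under every alternative tried. The 3 highest were atf5a, atf5b and cebpg, which in mammals encode bZIP proteins of the cellular stress response or partners of such proteins. The gene atf5a read 5.35 in atropine and 4.34 in water, or 2.01-fold higher. It was the only one of the 14 at least 1.5-fold higher, beside 1.87% of all compared genes. None was that much lower, beside 2.12% of all compared genes. The atf5a paralog atf5b was at 6.57 in atropine and 6.19 in water, and cebpg at 6.52 in atropine and 6.19 in water. Lowest were jdp2b, cebpa and cebpb. The gene jdp2b, whose product in mammals pairs with Jun and represses AP-1 targets, was at 4.98 in atropine and 5.43 in water, a difference of -0.44. The myeloid factor gene cebpa was at 7.10 in atropine and 7.41 in water, and cebpb, a factor of the same family induced in inflammation in mammals, at 8.63 in atropine and 8.86 in water.

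The list of other immediate early genes was broad and included stress and hormone response genes. Its median lay near the middle of the array, with a few genes at least 1.5-fold higher. Whether those few acted as immediate early genes in these hearts was not tested. Of 91 names, 67 had a probe set and 51 passed the filter. Of these, 21 were above 0 and 30 below, where 52.0% of all compared genes were below 0. Their median was -0.03. That median turned to 0.01 when scaled to cardiomyocyte genes, so no direction is given for it. By 1.5-fold or more, 4 of the 51 were higher and none was lower, beside 1.87% and 2.12% of all compared genes. The 4 were gadd45aa (a growth arrest and DNA damage gene), klf9 (a Krüppel-like factor induced by glucocorticoids), irs2a (an insulin receptor substrate) and nfkbiab (an inhibitor of NF-kB). Their values were 5.35 in atropine and 4.29 in water for gadd45aa, and 9.69 in atropine and 8.76 in water for klf9. For irs2a they were 6.63 in atropine and 5.85 in water. The difference of nfkbiab, 9.07 in atropine and 8.48 in water, sat on the threshold.

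The lowest of these genes were dusp2, nr4a1 and id1, all short of 1.5-fold. The gene dusp2 encodes a phosphatase that switches off MAP kinases and read 4.61 in atropine and 5.15 in water. The orphan nuclear receptor gene nr4a1 was at 5.87 in atropine and 6.40 in water, a difference of -0.53. The gene id1, an inhibitor of basic helix-loop-helix factors, was at 8.20 in atropine and 8.69 in water.

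Close relatives of ier2a, btg2 and egr1 were picked here after their values were seen and are given for description only. The ier2a relatives ier5 and ier5l differed by 0.05 and -0.02. Of the BTG and TOB family, to which btg2 belongs, btg1 differed by 0.19, btg3 by -0.02, tob1a by 0.34 and tob1b by 0.04. None of the 4 was as low as btg2. The egr1 relatives egr2a, egr2b and egr4 had values of 2.97, 3.22 and 2.78 in atropine against 2.93, 2.84 and 2.47 in water, all under the filter.

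Transcripts of the MAP kinase and serum response factor pathway had a median near that of the array as a whole. Its feedback regulators were grouped here after their values were seen, so no direction is given for them as a group. On their brightest probe sets those past the filter were, as deposited, spry4 (-0.75), dusp2 (-0.54), spred1 (-0.43), dusp5 (-0.37), dusp1 (-0.15), dusp6 (-0.10) and dusp7 (-0.05), with dusp16 above 0 (0.15). Under the filter, spry2 differed by -0.27 and dusp4 by 0.19. These are RNA levels, and the activity of the pathway was not measured. Of 68 names, 35 had a probe set and 26 passed the filter, with 10 above 0, 16 below and a median of -0.08. The 16 below 0 stand beside 52.0% of all compared genes. None of the 26 was at least 1.5-fold higher and 1 was at least 1.5-fold lower, beside 1.87% and 2.12% of all compared genes. That gene was spry4, encoding a Sprouty protein that is induced by and restrains Ras to ERK signalling, at 7.14 in atropine and 7.89 in water, or 1.68-fold lower. After spry4, the lowest were dusp2 and the Ras gene hrasb, at 4.95 in atropine and 5.40 in water. The highest were crebbpa, a histone acetyltransferase gene (0.20), mapk14b, a p38 kinase gene (0.17), and dusp16, a MAP kinase phosphatase gene (0.15). The gene srfa, encoding serum response factor and picked here after its value was seen, was at 3.15 in atropine and 3.14 in water, under the filter.

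Genes described as AP-1 targets in mammals were spread more widely. Of 45 names, 28 had a probe set and 22 passed the filter, with 8 above 0, 14 below and a median of -0.18 (0.30 when scaled to the spike-ins). At least 1.5-fold lower were 3 of the 22, beside 2.12% of all compared genes, and none was that much higher, beside 1.87%. The 14 below 0 stand beside 52.0% of all compared genes. The fibronectin gene fn1a read 5.72 in atropine and 7.27 in water. Its other 2 probe sets, under the filter, differed by -0.11 and -0.26. The metalloproteinase gene mmp9 was at 6.68 in atropine and 8.11 in water, and mmp13a at 8.46 in atropine and 9.66 in water, on a probe set shared by transcripts of the gene. The highest were timp2b, a metalloproteinase inhibitor gene (0.41), gclc, for glutathione synthesis (0.33), and sqstm1, for selective autophagy (0.23). Many of these genes answer to other factors too, so their values are no measure of AP-1 activity.

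**Figure D4:**
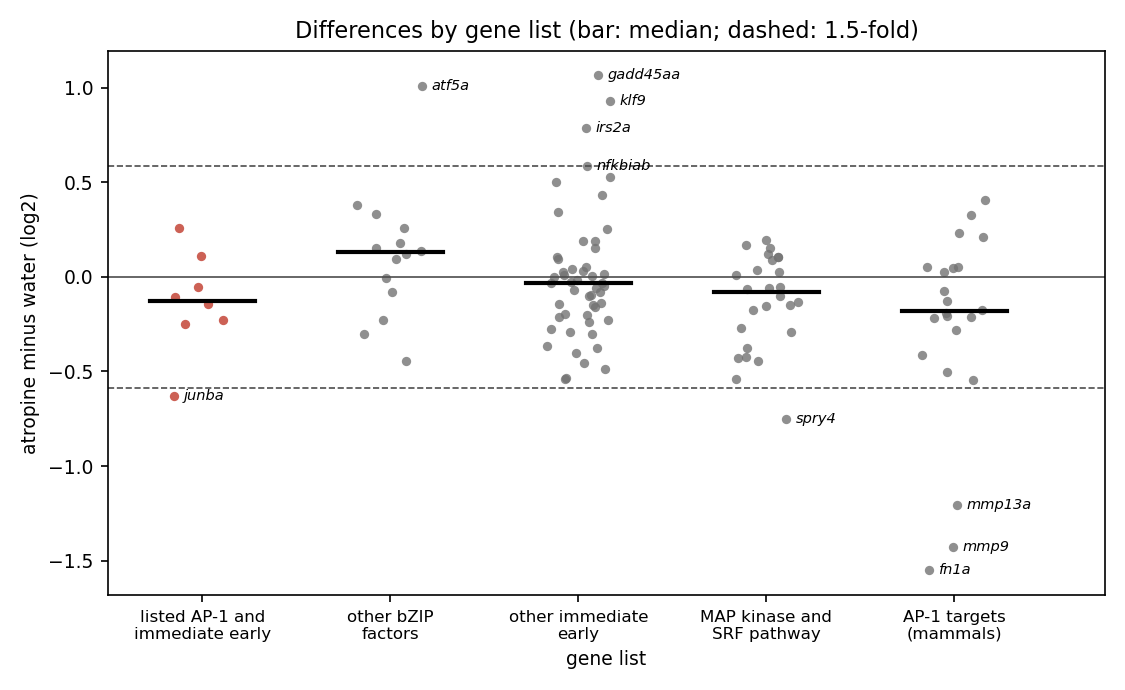
Difference of every compared gene (points, atropine minus water, log2) in the listed AP-1 and immediate early genes and in 4 related lists, with bars at the medians and dashed lines at 1.5-fold. Genes at least 1.5-fold apart are named. Some genes are in more than 1 of the related lists, such as dusp1, dusp2, dusp5 and dusp6, and are drawn in each. The medians run from -0.18 for the AP-1 targets to 0.13 for the other bZIP factors.

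Markers of several cell types also differed between the 2 pools. Over all compared genes, 52.0% had a difference below 0 and 47.8% above. Of 9 genes listed as neutrophil markers past the filter 8 were lower in atropine, with summed linear values of 1996 in atropine and 2770.4 in water. Among the 8 are mmp9 and mmp13a, which are also in the AP-1 target list, and cpa5. These 3 genes are not particular to neutrophils. The gene cpa5 passed the filter through the water array alone (3.90 in atropine, 4.35 in water), so it could only count as lower. Of 11 macrophage markers 9 were lower, with sums of 5977 in atropine and 6566 in water. Of 10 fibroblast and epicardial markers 9 were lower, fn1a included, with sums of 1919.7 in atropine and 2766 in water; tbx18 and wt1a lay under the filter. Of 11 red blood cell markers 10 were higher, with sums of 17303 in atropine and 13040.4 in water. Endothelial markers were lower in 5 of 6, with sums of 884 in atropine and 977 in water. None of the 6 was at least 1.5-fold lower or higher, beside 2.12% and 1.87% of all compared genes. Their median was -0.15, or -0.03 without the level filter and 0.33 scaled to the spike-ins, so no direction is given for endothelial markers. Cardiomyocyte markers were lower in 9 of 15, with sums of 40091.5 in atropine and 42923 in water. Among these 9, gata4 passed the filter through the water array alone, so gata4 too could only count as lower. Of 4 thrombocyte genes with a probe set, nfe2 alone passed the filter, at 0.75. Under the filter, itga2b differed by 0.13, gp1bb by 0.13 and thbs1b by 0.23. No direction is given for thrombocytes. The sums are carried by the brightest genes of a list, so the median differences and the counts at 1.5-fold read otherwise. The medians were -0.72 for neutrophil, -0.71 for macrophage, -0.49 for fibroblast and epicardial and 0.72 for red blood cell markers. Without shared probe sets the neutrophil median was -0.45, and with the offset of 16 the macrophage median was -0.42. Scaled to the spike-ins, the medians were -0.24 for neutrophil, -0.23 for macrophage, -0.01 for fibroblast and epicardial and 1.19 for red blood cell markers. At least 1.5-fold lower were 5 of the 9 neutrophil, 6 of the 11 macrophage and 3 of the 10 fibroblast and epicardial markers. The share over all compared genes was 2.12%. At least 1.5-fold higher were 7 of the 11 red blood cell markers, beside 1.87% of all compared genes. Of the macrophage markers cd74a (-1.63), cd74b (-1.32) and apoeb (-1.02) were lowest, and ctsba (0.61) was highest. Cardiomyocyte markers had a median of -0.04, with tnnc1a (-1.41) and myh7 (-1.19) at least 1.5-fold lower and tbx5a (1.24) at least 1.5-fold higher. That tbx5a probe set is shared by transcripts of the gene. The other tbx5a probe set, under the filter, differed by 0.34. The part of any of these cell types in the difference of junba or of the other listed genes was not tested.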

How the data were processed

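Per the labels' protocols, total RNA was biotin-labelled by an Affymetrix 3' IVT protocol. The authors deposited 1 log2 value per probe set and array, with the log2 scale inferred from the values. The labels name no software or normalization. Quartiles of both arrays are near equal, so a global shift in RNA content would not show. Detection calls and scanner files were not used here.

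Of 15502 non-control probe sets 10795 had a single symbol, 135 several and 4572 none. Symbols were updated by Entrez identifier through a RefSeq gene table (assembly GRCz12tu), which held 99.2% of named probe sets. Matching by symbol found 219 list names and matching by synonym 9, and 147 were unmatched. An item of the bZIP list is not reported here. No coordinates or sequences are given.

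The members and lists were chosen with earlier results of these data known. A gene other than a member can be in more than 1 list, so counts of different lists are not independent. Named are all members and, per related list, the 3 highest and 3 lowest compared genes and any at least 1.5-fold apart. A fold change is the antilog of the difference. Arrays have no depth in counts, and precision is limited by having 2 arrays. The calculation was tested on simulated data. Alternatives were 5 scalings, 2 level filters, an offset of 16, omission of shared probe sets, the mean per gene, and thresholds of 1.3-fold and 2-fold. Python 3.11.15, numpy 2.4.6, pandas 2.3.3, statsmodels 0.14.6 and matplotlib 3.10.9 were used.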

Additional observations from a re-analysis of the deposited data

How the results depend on the processing

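The single gene at least 1.5-fold lower, junba, came to 0 genes after quantile normalization, with scaling to the polyadenylated spike-ins and at a threshold of 2-fold. At least 1.5-fold higher there were 0 genes as deposited and 2, fosab (0.59) and atf3 (0.74), with scaling to the spike-ins. The median of the listed genes, -0.13 as deposited, turned to 0.35 with that scaling, which moves the median of all compared genes to 0.47; under the other alternatives it lay below 0. Relative to the median of all compared genes, junba lay between -0.63 and -0.57 in all 11 settings. A constant shift cancels in this measure, so median centring and the scalings to cardiomyocyte genes and spike-ins could not move it. The level filters, the omission of shared probe sets and the mean per gene could move only the median, because junba has 1 probe set, not of a shared type. No paired analysis was possible because each condition has 1 array. Leaving out an array was not possible for the same reason. The number of arrays and the unknown background of the array limit every value.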
